A study of Mus musculus with 8 samples.

Results

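Rab GTPases are the small switch proteins that mark each membrane compartment of the cell, and their genes were followed here in the chromatin of microglial nuclei. The genes were chosen by name, as every gene symbol in the deposited table made of Rab, a number and at most a letter and a further digit. This gave 56 of 18707 genes and 377 of 129304 regions. The measurement was of H3K27ac, the acetylated form of lysine 27 on histone H3, which lies on promoters and enhancers in use, by chromatin immunoprecipitation and sequencing in C57BL/6 mice aged 2 years. The WT group carried normal Grn, and the GrnKO group lacked it, while the labels used here do not describe the allele. Each group had 2 replicates, both pooled from 2 mice, with 1 H3K27ac library and 1 input library of chromatin that was not immunoprecipitated. Nuclei had been sorted from brain as positive for PU.1, a myeloid transcription factor, and negative for OLIG2 and NEUN, which mark oligodendrocytes and neurons. The tests below measure the spread between pools, so the spread between single mice is not seen.

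A Rab protein is loaded with GTP by an exchange factor, then binds the membrane and recruits effectors such as tethers and motors. A GTPase-activating protein ends the cycle, and an escort protein (a GDP dissociation inhibitor) lifts the Rab off the membrane. Microglia are phagocytes, in which Rab5 proteins act on early endosomes, Rab7 on late endosomes and lysosomes, and Rab11 proteins and Rab35 on recycling to the surface. Progranulin, the product of Grn, is a secreted protein that reaches lysosomes.

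Promoters of the 3 Rab genes whose acetylation summed within 1000 bp of a start passed the test are shown here, together with that of Rab7, the classical Rab of late endosomes and lysosomes. Each sequence holds the 250 bases before an annotated start, 5′ to 3′ on the gene's strand, from RefSeq on GRCm38.p6, with CG dinucleotides in capitals. Rab15 has a CG-rich start and another, CG-poor start inside the gene, and acetylation rose at both. The first lies at chr12:76822525-76822774 on the minus strand, with 27 CG dinucleotides and 75.2% G or C, and the other at chr12:76813857-76814106 on the minus strand, with 3 CG dinucleotides and 46.4% G or C. The Rab43 windows, at which acetylation fell, lie at chr6:87812165-87812414 and chr6:87809758-87810007 on the minus strand and hold 15 and 2 CG dinucleotides. The Rab27a window, which also fell, lies at chr9:73044560-73044809 on the plus strand with 14, and the Rab7 window at chr6:88045018-88045267 on the minus strand with 29. At the upstream Rab43 start acetylation fell in the region that overlaps this window from its outer side (described with the other Rab43 regions), while the region that holds the start had a log2 change of -1.31 (limma adjusted p = 0.0651). The median over all 32851 RefSeq windows was 6 CG dinucleotides and 52.4% G or C.
Rab15, upstream start: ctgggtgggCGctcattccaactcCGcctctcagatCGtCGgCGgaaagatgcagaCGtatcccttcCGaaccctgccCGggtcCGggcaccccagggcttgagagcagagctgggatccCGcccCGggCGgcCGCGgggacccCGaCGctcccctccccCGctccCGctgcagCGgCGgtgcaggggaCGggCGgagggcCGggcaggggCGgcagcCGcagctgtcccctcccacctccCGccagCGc
Rab15, inner start: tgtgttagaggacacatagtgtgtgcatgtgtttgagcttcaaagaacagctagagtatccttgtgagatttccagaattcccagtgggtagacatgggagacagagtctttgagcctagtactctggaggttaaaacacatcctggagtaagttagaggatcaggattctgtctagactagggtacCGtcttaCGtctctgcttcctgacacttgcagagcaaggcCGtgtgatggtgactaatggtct
Rab43, upstream start: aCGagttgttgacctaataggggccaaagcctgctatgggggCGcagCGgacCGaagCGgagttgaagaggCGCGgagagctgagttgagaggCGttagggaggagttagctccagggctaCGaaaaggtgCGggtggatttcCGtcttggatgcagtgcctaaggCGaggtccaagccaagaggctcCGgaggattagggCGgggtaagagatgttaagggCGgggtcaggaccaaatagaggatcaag
Rab43, inner start: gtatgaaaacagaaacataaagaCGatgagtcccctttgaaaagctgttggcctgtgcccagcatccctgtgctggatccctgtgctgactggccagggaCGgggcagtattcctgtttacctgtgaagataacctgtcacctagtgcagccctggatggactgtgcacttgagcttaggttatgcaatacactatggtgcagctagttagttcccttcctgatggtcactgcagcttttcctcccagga
Rab27a: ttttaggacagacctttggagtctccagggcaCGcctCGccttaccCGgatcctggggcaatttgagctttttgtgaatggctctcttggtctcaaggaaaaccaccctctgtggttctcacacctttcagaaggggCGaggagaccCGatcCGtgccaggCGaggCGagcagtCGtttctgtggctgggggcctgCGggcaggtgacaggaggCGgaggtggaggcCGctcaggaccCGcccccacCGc
Rab7: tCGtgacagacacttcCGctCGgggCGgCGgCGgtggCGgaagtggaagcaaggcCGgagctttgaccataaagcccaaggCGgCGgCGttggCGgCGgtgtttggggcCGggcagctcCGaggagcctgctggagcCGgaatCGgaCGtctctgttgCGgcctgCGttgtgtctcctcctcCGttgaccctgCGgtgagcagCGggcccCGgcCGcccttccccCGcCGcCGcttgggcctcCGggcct

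Values are given in scaled tags, which are sequenced tags per 10000000 tags of a library, divided for H3K27ac by a TMM factor that equalises the libraries (TMM is the trimmed mean of M-values). The factors were estimated over genes for sums and over regions for single regions, so a region's value and its gene's sum differ slightly in scale. Input values, and those of Grn, Xist and the Y chromosome, are in the authors' scaling, without TMM. A gene's value is the sum of its assigned regions, so different genes are compared only per region of 800 bp. In WT the tested Rab genes had a median of 31.6 scaled tags per region, against 20.4 over all 15380 tested genes, and in GrnKO 29.99 against 22.1. The highest WT levels per region were at Rab8b (119.9), Rab40c (100.3), Rab11a (97.9) and Rab42 (96.3). Among the 49 tested genes the lowest were at Rab15 (0.382), Rab3d (1.99) and Rab23 (2.21). All Rab regions together held 43.9 and 44.2 scaled tags per region in the WT libraries and 45.2 and 45.5 in the GrnKO libraries.

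The H3K27ac libraries held 15491642.5 to 20030832 tags and the inputs 4078179 to 14415969. WT replicate 1 stood apart, with 49.4% of its tags in the listed regions against 63.3% to 65.7% in the other 3 H3K27ac libraries. The targeted gene matched the labels: at the 3 regions within 1000 bp of the start of Grn, acetylation in the authors' scaling was 1083 and 1076 in WT against 7.34 and 6.49 in GrnKO. The defining genes of microglia were all present, with 168 to 210.1 scaled tags per region over 14 genes, against 6.93 to 11.5 over the 8 neuronal markers in the table. Of the 14 microglial markers, all tested, 6 were lower in GrnKO (Cx3cr1, Tmem119, Csf1r, Sall1, Selplg and Siglech) and 0 higher. Over all tested genes 4.88% were lower and 9.54% higher, the shares to set beside each list here. Of the other markers 4 neuronal, 5 oligodendrocyte, 5 astrocyte, 3 endothelial, 6 border macrophage and 2 monocyte or lymphocyte ones were tested. The microglial markers summed to 194 and 210.1 scaled tags per region in WT and to 168 and 173 in GrnKO. Markers of other cells were present too, and some moved with genotype. Endothelial markers (3 in the table) held 17.1 and 19.2 scaled tags per region in WT and 26.6 and 28.6 in GrnKO, with Flt1 called higher. Oligodendrocyte markers (7) held 42.8 and 45.0 against 52.0 and 55.7, with Mbp higher and Mog lower, and monocyte and lymphocyte markers (5) held 36.6 and 35.6 against 55.4 and 42.5, with Ms4a1 higher. Astrocyte markers (7) held 58.8 to 61.4 and border macrophage markers (6) 21.7 to 23.7 over all libraries, with S100b and F13a1 called higher. Of the neuronal markers Syt1 was lower, and no marker in the table was at 0 in all libraries. The part of these shifts in the Rab results was not tested. In pools of nuclei, a mark lost from some nuclei and a mark weakened in all of them cannot be told apart.

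Loss of Grn went with a change of acetylation at 10 Rab genes. Rab7, Rab7b, Rab15, Rab31, Rab32, Rab37 and Rab40c were higher in GrnKO, and Rab35, Rab39 and Rab43 were lower (limma adjusted p under 0.05, over all tested genes). Of the 7 higher genes 5 were endosome or lysosome Rabs, which were also 22 of the 49 tested Rab genes. The median log2 change of these 22 was -0.05. Among the 5, Rab15, almost without acetylation in WT, was tested only because it is acetylated in GrnKO. Apart from Rab15, the called genes changed by 1.26-fold to 1.95-fold when higher, and lay at 0.600 to 0.659 of the WT mean when lower.

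Of the 56 Rab genes 49 passed the filter on low tags, and the 10 called are 20.4% of these, where 14.4% of all tested genes were called. The split was 7 higher (14.3%, against 9.54% of all genes) and 3 lower (6.12%, against 4.88%). The median log2 change of the 49 was 0.02, beside -0.01 for all tested genes. Both GrnKO values lay above both WT values for 18 of them (36.7%, against 27.4% of all genes) and below for 13 (26.5%, against 26.6%). An unadjusted p under 0.05 was reached by 18 of the 49, and by 4107 of all 15380 tested genes. Of the 49, Rab15 and Rab23 reached the filter's level only in GrnKO, so they could be tested only if they differed. Without them 6 of 47 were higher and 3 lower. The 7 genes not tested were Rab3b, Rab9b, Rab22a, Rab25, Rab26, Rab36 and Rab40b, whose sums ran from 0 to 7.84 scaled tags per library.

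The 25 Rab genes of endosomes and lysosomes had 22 tested members, of which 5 were higher (22.7%, against 9.54% of all genes) and 1 was lower (4.55%, against 4.88%). Their median log2 change was -0.05, with 11 positive and 11 negative. Without Rab15, 4 of 21 were higher and 1 was lower. The 31 remaining Rab genes had 27 tested members, of which 2 were higher and 2 lower (7.41% each), with a median of 0.13. The difference between these groups was not tested.

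**Figure D1:**
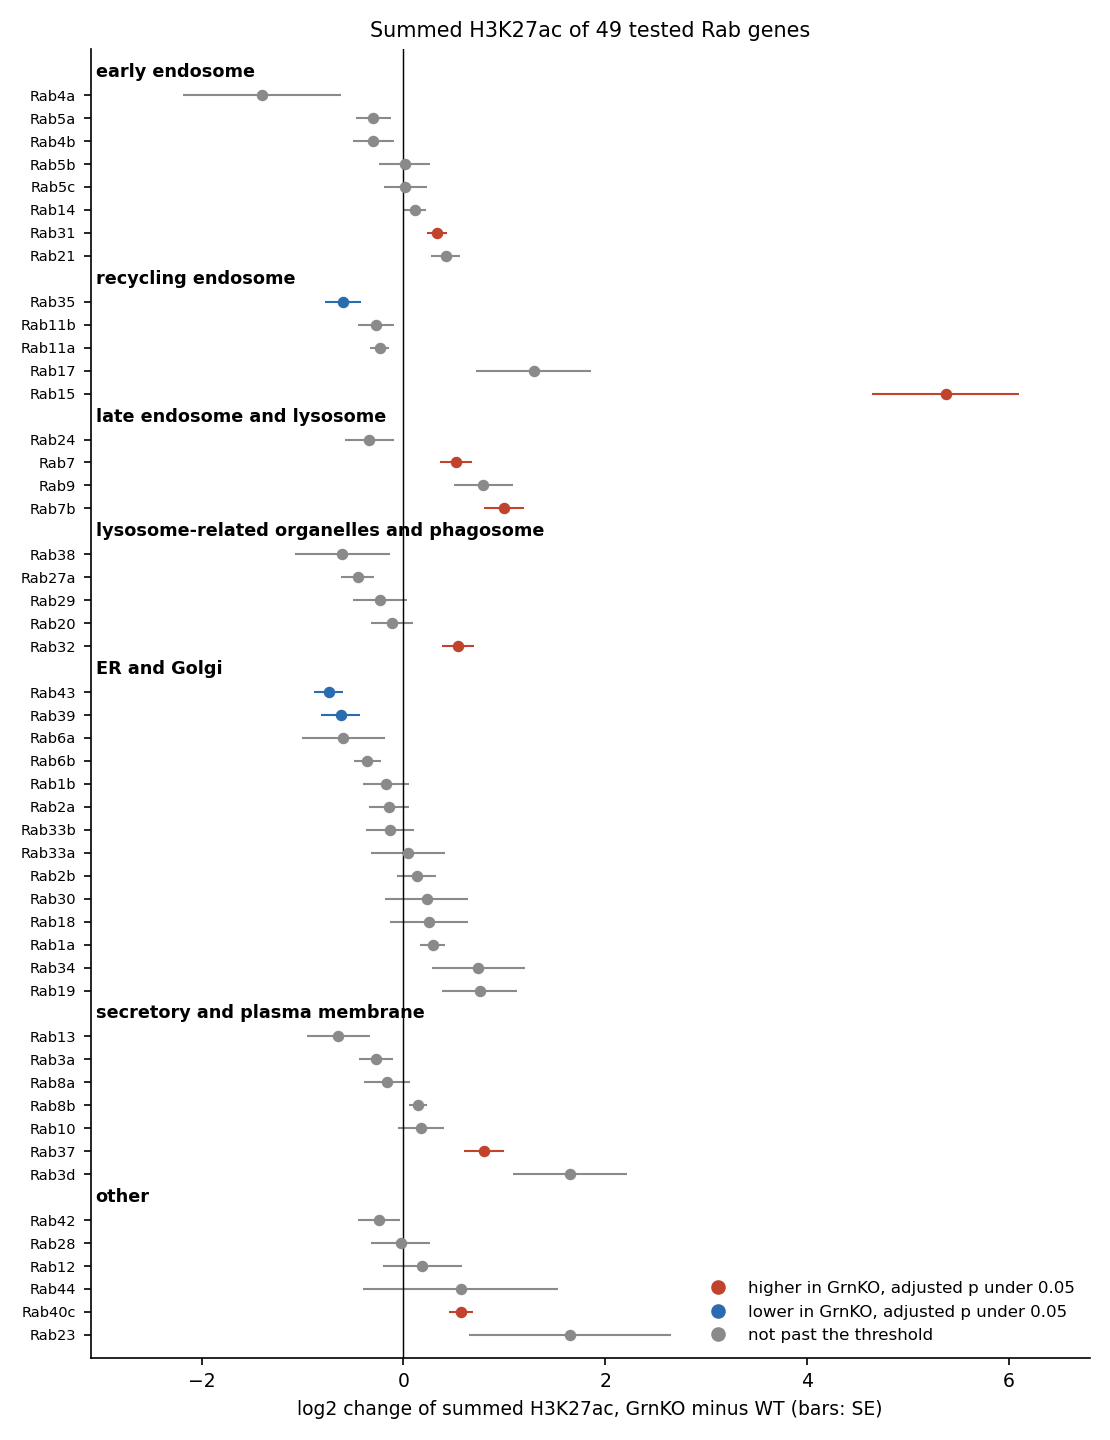
Log2 change of summed H3K27ac (GrnKO minus WT, bars are the SE of the limma fit) for the 49 tested Rab genes, in 7 groups by compartment. Red points are the 7 higher genes, blue points the 3 lower genes and grey points those not past the threshold, with Rab15 far to the right at 5.37.

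Of the 4 tested late endosome and lysosome genes 2 were called, beside 14.4% of all genes, with a median log2 change of 0.66. Rab7, which drives the fusion of late endosomes with lysosomes, had 330.2 and 273 scaled tags in WT and 444 and 419.7 in GrnKO. Both GrnKO values exceeded both WT values. The mean rose 1.43-fold, from 302 ± 40.4 to 432 ± 16.9 (SD, n = 2 each; log2 change 0.52, SE 0.16, limma adjusted p = 0.0354). This call was close to the threshold: the limma adjusted p was 0.0686 without WT replicate 2, 0.316 without GrnKO replicate 1 and 0.174 without GrnKO replicate 2. It was 0.0572 with DESeq2's size factors in place of TMM and 0.0541 with TMM factors estimated over regions.

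Rab7b acts in transport between late endosomes and the trans-Golgi network. It had 346 and 212 scaled tags in WT and 596 and 492 in GrnKO, without overlap. The mean rose 1.95-fold, from 279 ± 94.3 to 544 ± 74.1 (SD, n = 2 each; log2 change 1.00, SE 0.20, limma adjusted p = 0.0031). Its call was kept when any of the 4 libraries was left out. Rab9, which returns mannose 6-phosphate receptors from late endosomes to the Golgi, had 61.5 and 45.2 in WT against 81.5 and 104 in GrnKO. These values do not overlap, but the change of 0.79 (SE 0.29) had a limma adjusted p of 0.0848. Rab9 is on the X chromosome, and Xist, the RNA of the inactive X, had, in the authors' scaling, 81.7 and 128 in the replicates numbered 1 but 0 and 5.49 in those numbered 2. The 32 regions of the Y chromosome summed to 131 and 138 in the former and 403 and 306 in the latter, so the make-up of the pools by sex differed within both genotypes. Rab24, linked to autophagy, overlapped between genotypes at -0.34 (SE 0.24, limma adjusted p = 0.419).

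Among the early endosome genes only Rab31 passed the threshold, out of 8 tested (12.5%, against 14.4% of all genes). Rab31, which carries cargo from the trans-Golgi network to endosomes, had 1358 and 1363 scaled tags in WT and 1707 and 1723 in GrnKO. The replicates lay close together and the genotypes apart. The mean rose 1.26-fold, from 1360.5 ± 3.91 to 1715 ± 11.5 (SD, n = 2 each; log2 change 0.33, SE 0.10, limma adjusted p = 0.035). Without GrnKO replicate 1 or 2 the limma adjusted p was 0.316 and 0.311, and with the authors' scaling alone it was 0.168. The input of WT replicate 1 held 601 scaled tags over these regions, against 22.4 to 116 in the other inputs.

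The Rab5 genes, whose products fuse early endosomes, did not pass the threshold. The log2 change was -0.30 (SE 0.17) for Rab5a, 0.01 (SE 0.25) for Rab5b and 0.02 (SE 0.22) for Rab5c. Rab14, found on early endosomes and phagosomes, was among the more acetylated at 1221 and 1094 scaled tags in WT and 1287 and 1221 in GrnKO, and the genotypes overlapped. Rab21, an endosomal Rab of integrin traffic, had a change of 0.42 (SE 0.15, limma adjusted p = 0.07), with 345 and 327 in WT below 463 and 435 in GrnKO. The rapid recycling genes Rab4a and Rab4b had changes of -1.40 (SE 0.78) and -0.30 (SE 0.21).

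Of the 5 tested recycling endosome genes 1 rose, Rab15, and 1 fell, Rab35 (20% each, against 9.54% and 4.88% of all genes). Rab15, which acts between sorting and recycling endosomes, had 1.53 and 0 scaled tags in WT and 53.7 and 78.4 in GrnKO. In tags this is 2 and 0 against 93.5 and 168 (a tag with 1 end in a region counts 0.5). The ratio per library size was 108, with a 95% exact counting interval of 29.8 to 902, which covers counting error only. The log2 change was 5.37 (SE 0.73, limma adjusted p = 0.000137), and its size depends on the pseudocount because WT is so low. As given above, Rab15 passed the filter only through the GrnKO libraries, so this call is no support for a change beyond the values themselves. The WT replicate 1 input held 58.8 scaled tags at Rab15 and the other 3 inputs held 0.

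Rab35, which returns cargo rapidly to the plasma membrane and acts on actin, went the other way. It had 282 and 254 scaled tags in WT and 165 and 188 in GrnKO, without overlap. The mean fell to 0.659 of WT, from 268 ± 20.1 to 177 ± 16.8 (SD, n = 2 each; log2 change -0.60, SE 0.18, limma adjusted p = 0.0354). The limma adjusted p was 0.0544 without WT replicate 1, 0.359 without GrnKO replicate 1, 0.117 without GrnKO replicate 2, 0.0667 over regions that do not overlap and 0.357 with the authors' scaling. Rab11a and Rab11b, the main Rabs of recycling endosomes, had changes of -0.24 (SE 0.09, limma adjusted p = 0.11) and -0.27 (SE 0.18, limma adjusted p = 0.378), with the GrnKO values below both WT values for each. Whether Rab11a passes depends on the fit. It was called lower with the replicate number as a block, with DESeq2's size factors and with TMM factors over regions. Rab17, an epithelial recycling Rab, was low, at 20.3 and 6.27 in WT and 29.0 and 29.9 in GrnKO (1.29, SE 0.57, limma adjusted p = 0.156).

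Of the 5 genes of lysosome-related organelles and phagosomes only Rab32 passed the threshold (20%, against 14.4% of all genes). The median log2 change of the 5 was -0.23, and 4 were negative. Rab32, which delivers enzymes to such organelles, had 357 and 337 scaled tags in WT and 581 and 441 in GrnKO. The GrnKO libraries differed from each other by more than the WT libraries did, and neither overlapped WT. The mean rose 1.47-fold, from 347 ± 13.9 to 511 ± 98.9 (SD, n = 2 each; log2 change 0.54, SE 0.16, limma adjusted p = 0.032). The limma adjusted p was 0.543 without GrnKO replicate 1 and 0.0506 with DESeq2's size factors. The inputs at Rab32 held 0 and 34.2 scaled tags in WT and 72.8 and 3.06 in GrnKO, and the change of H3K27ac less that of the input was -0.997 (limma adjusted p = 0.994). Its close relative Rab38 had a change of -0.60 (SE 0.47, limma adjusted p = 0.47). Rab27a, which docks secretory lysosomes, had 303 and 320.0 in WT and 234 and 221 in GrnKO (-0.45, SE 0.16, limma adjusted p = 0.0818). Rab29, which can recruit the kinase LRRK2, and Rab20, a phagosome Rab, overlapped between genotypes at -0.23 and -0.12.

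Outside the endosome and lysosome lists, Rab40c and Rab37 were higher and Rab43 and Rab39 lower. Rab40c, whose product joins a ubiquitin ligase, had 678 and 727 scaled tags in WT and 1069 and 1014 in GrnKO, clearly apart. The mean rose 1.48-fold, from 702 ± 34.6 to 1041 ± 38.9 (SD, n = 2 each; log2 change 0.57, SE 0.12, limma adjusted p = 0.00381), with a limma adjusted p of 0.104 without GrnKO replicate 1. Rab37, a Rab of secretory granules, had 128 and 135 in WT against 202 and 261 in GrnKO. The groups did not overlap (1.76-fold, log2 change 0.80, SE 0.20, limma adjusted p = 0.0139), and without GrnKO replicate 2 the limma adjusted p was 0.291. The inputs at Rab37 held 1.23 and 3.21 scaled tags in WT, at or below a floor of 3 tags, and 65.2 and 46.9 in GrnKO. Their log2 change of 4.33 had an SE of 3.05 and did not pass the threshold. The change of H3K27ac less that of the input, -3.53 (limma adjusted p = 0.813), is therefore poorly known.

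Rab43, a Rab of the Golgi and of its supply from the ER, showed the clearest loss. It had 1119 and 918 scaled tags in WT and 535 and 686 in GrnKO, without overlap. The mean fell to 0.600 of WT, from 1018 ± 142 to 611 ± 106 (SD, n = 2 each; log2 change -0.74, SE 0.14, limma adjusted p = 0.0025). Without GrnKO replicate 1 the limma adjusted p was 0.0724, and with the authors' scaling 0.118. Rab39, of Golgi and phagosome membranes, had 297 and 434 in WT and 252 and 216 in GrnKO, and the highest GrnKO value lay below the lowest WT value (0.640 of WT, log2 change -0.62, SE 0.19, limma adjusted p = 0.0408). Its limma adjusted p was 0.186 without WT replicate 2, 0.0825 without GrnKO replicate 1, 0.276 without GrnKO replicate 2 and 0.3 with the authors' scaling. The other 12 tested ER and Golgi genes ran from -0.59 (Rab6a) to 0.76 (Rab19), none past the threshold.

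**Figure D2:**
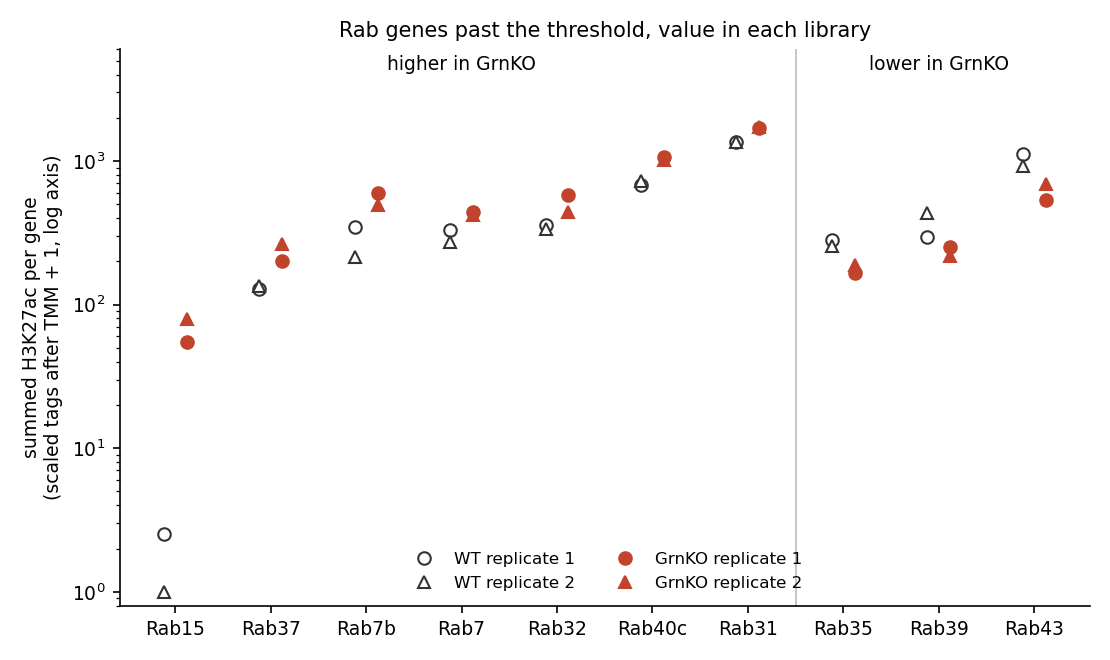
Summed H3K27ac of the 10 called Rab genes in each of the 4 libraries (scaled tags after TMM plus 1, log axis; open symbols WT, filled symbols GrnKO, circles replicate 1, triangles replicate 2). In each of the 10 genes both filled symbols lie on 1 side of both open symbols, and the WT values of Rab15 sit at the bottom of the axis. The genes were chosen by a test on these same values, so their separation is no further support. Of all tested genes 27.4% had both GrnKO values above both WT values and 26.6% below.

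The lower calls depend on the scaling between libraries. Scaled to library totals only, as the authors deposited the values, the median log2 change of all genes moved from -0.01 to 0.18 and that of the Rab genes from 0.02 to 0.21. Over all genes 90.8% of the called genes were then higher, against 66.2% with TMM. Under it 8 Rab genes were called, all higher: Rab31, Rab35, Rab39 and Rab43 were no longer called, and Rab3d and Rab9 were added. The sign changed for 6 of the 49 Rab genes and for 0 of the 10 called. Without WT replicate 1, the library with the lower enrichment, 11 Rab genes were higher and 6 lower, and 9 of the 10 were among them, in a fit that called 3221 genes. Without GrnKO replicate 1, 3 were higher (Rab7b, Rab15 and Rab37) and 0 lower, while 868 genes were called in all, in place of 2218.

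Of 30 Rab genes tested in the inputs 0 passed the threshold (limma), beside 0% of all tested genes, and 1 had an unadjusted p under 0.05. In WT replicate 1, 41 of the 49 tested Rab genes had more H3K27ac than input, and 45 to 46 in the other 3 pools. The input sum was 0 for 25 of the 49 in WT replicate 1, and 4 to 19 in the other pools, so the input fold of single genes is poorly known.

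At the level of single regions, 275 of the 377 Rab regions were tested, of which 20 were higher and 8 lower. This is 10.2% in all, against 9.71% of all tested regions, or 7.27% higher against 6.8% and 2.91% lower against 2.92%. Both GrnKO values exceeded both WT values in 76 of them (27.6%, against 27%), and the reverse held in 67 (24.4%, against 25.6%). The called regions belonged to 14 Rab genes. Of the 20 higher regions 4 reached the filter's level only in GrnKO (both Rab15 regions, that of Rab37 and that of Rab11a), so they could be tested only if they differed, and their p is no further support. Of 93 tested regions within 1000 bp of a start, 2 were higher (2.15%, against 3.57% of all such regions) and 6 lower (6.45%, against 1.61%), and 4 of the 6 belong to Rab43. Of 182 tested regions farther away, 18 were higher (9.89%, against 7.99%) and 2 lower (1.10%, against 3.4%). Whether the higher and lower regions differ in position was not tested. Regions that overlap share tags, and those of 1 gene are not independent.

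The Rab7 region past the threshold was an intergenic one at chr6:88053549-88054349, at -8679 bp from the start and also within 1000 bp of the start of Gm38855. It had 27.4 and 21.7 scaled tags in WT and 111 and 106 in GrnKO. The mean rose 4.41-fold (log2 change 2.11, SE 0.29, limma adjusted p = 0.00014), a call kept when any of the 4 libraries was left out. The promoter region, in which the printed Rab7 sequence lies, had a change of 0.76 (limma adjusted p = 0.0729). Of the 14 tested Rab7 regions 7 had a positive and 7 a negative change.

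Rab7b had 4 higher regions, and 9 of its 10 tested regions had a positive change. The 1 with the smallest p, in intron 4 of 4 at chr1:131703326-131704126, had 11.7 and 3.93 scaled tags in WT and 56.9 and 41.5 in GrnKO. It rose 6.28-fold (log2 change 2.65, SE 0.51, limma adjusted p = 0.00253). Its 3 further regions lay at chr1:131702260-131703060 in the same intron, at chr1:131691193-131691993 in intron 1 and between genes at chr1:131679428-131680228, with log2 changes of 1.29, 1.09 and 1.43.

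Both Rab15 regions hold an annotated start, and both rose. The region at the inner start, chr12:76813321-76814121 in intron 1 of 6, had 0 tags in both WT libraries and 35.9 and 51.2 scaled tags in GrnKO. With a floor of 3 tags per library in WT, on average 1.96 scaled tags on this scale, this is at least 22.2-fold higher (limma adjusted p = 0.000269). The region at the CG-rich start, chr12:76822068-76822868, had 1.56 and 0 in WT and 17.0 and 26.3 in GrnKO (log2 change 3.79, SE 0.88, limma adjusted p = 0.0101). The 58.8 scaled tags of the WT replicate 1 input lay in the inner region, where the H3K27ac library of the same pool had 0.

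Rab31 rose deep inside the gene. The 3 higher regions lay 44413 to 46343 bp from the start in intron 1 of 6, and 2 of them share bases. The region at chr17:65726009-65726809 had 85.3 and 110.3 scaled tags in WT and 199.7 and 184 in GrnKO (1.96-fold, log2 change 0.98, SE 0.20, limma adjusted p = 0.00415). Rab8b, a Rab of transport to the plasma membrane, also had 3 higher regions in its first intron, although its sum was not called. The strongest by p, at chr9:66883299-66884099, had 82.1 and 116 in WT and 158 and 189 in GrnKO (log2 change 0.81, SE 0.21, limma adjusted p = 0.0212). Less the change of the input, it was -1.499 (limma adjusted p = 0.804). The input held 0 tags in WT and 0.694 and 12.2 scaled tags in GrnKO, so this value depends on the pseudocount and shows no reversal.

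Rab43 held 5 of the 8 lower regions, 4 of them within 1000 bp of a start, and 12 of its 13 tested regions had a negative change. At the inner start, chr6:87809400-87810200, the values were 173 and 105 scaled tags in WT and 47.8 and 78.2 in GrnKO (log2 change -1.13, SE 0.28, limma adjusted p = 0.0147). Just outside the upstream start, at chr6:87812177-87812977, they were 36.4 and 23.6 against 6.79 and 10.4 (log2 change -1.69, SE 0.50, limma adjusted p = 0.041). The region that holds this start was not past the threshold, as given with the sequences. Rab43 and Rab7 lie near each other on chromosome 6, at chr6:87788853-87812164 and chr6:87999106-88045270, and moved in opposite directions. At the Rab27a promoter, chr9:73044398-73045198, acetylation was 128 and 121 in WT and 70.1 and 57.0 in GrnKO (log2 change -0.97, SE 0.23, limma adjusted p = 0.0119).

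Further higher regions lay in intron 2 of 6 of Rab40c (chr17:25912816-25913616, log2 change 1.04) and in intron 2 of 8 of Rab37 (chr11:115151753-115152553, 2.82). In the ER-to-Golgi gene Rab1a 1 lay in intron 1 of 5 (chr11:20202443-20203243, 1.16), and for Rab21 1 lay between genes at -16968 bp from the start (chr10:115332159-115332959, 1.66). The 1 higher region assigned to Rab11a, at chr9:64572412-64573212, lies 164944 bp from its start in intron 5 of 24 of Megf11, and had 1.56 and 4.98 scaled tags in WT against 41.0 and 31.1 in GrnKO (log2 change 3.23, SE 0.62, limma adjusted p = 0.00246). Further lower regions lay at Rab39, over the start and the only intron (chr9:53705438-53706238, -0.64), and upstream of Rab6b, a Golgi Rab (chr9:103108199-103108999, -1.15). With either GrnKO library left out, only 1 Rab region, that of Rab7, was called higher, and 0 or 3 were called lower. Those fits called 1334 (without GrnKO replicate 1) and 1861 (without GrnKO replicate 2) of all 80728 regions, in place of 7842. The Rab1a region had a limma adjusted p of 0.207 without WT replicate 1 and 0.0872 without the filter, and its adjusted p was 0.0753 with edgeR and 0.511 with DESeq2. The Rab39 region had a limma adjusted p of 0.0498, which was 0.253 without WT replicate 2, 0.107 without the filter and 0.462 with the authors' scaling.

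**Figure D3:**
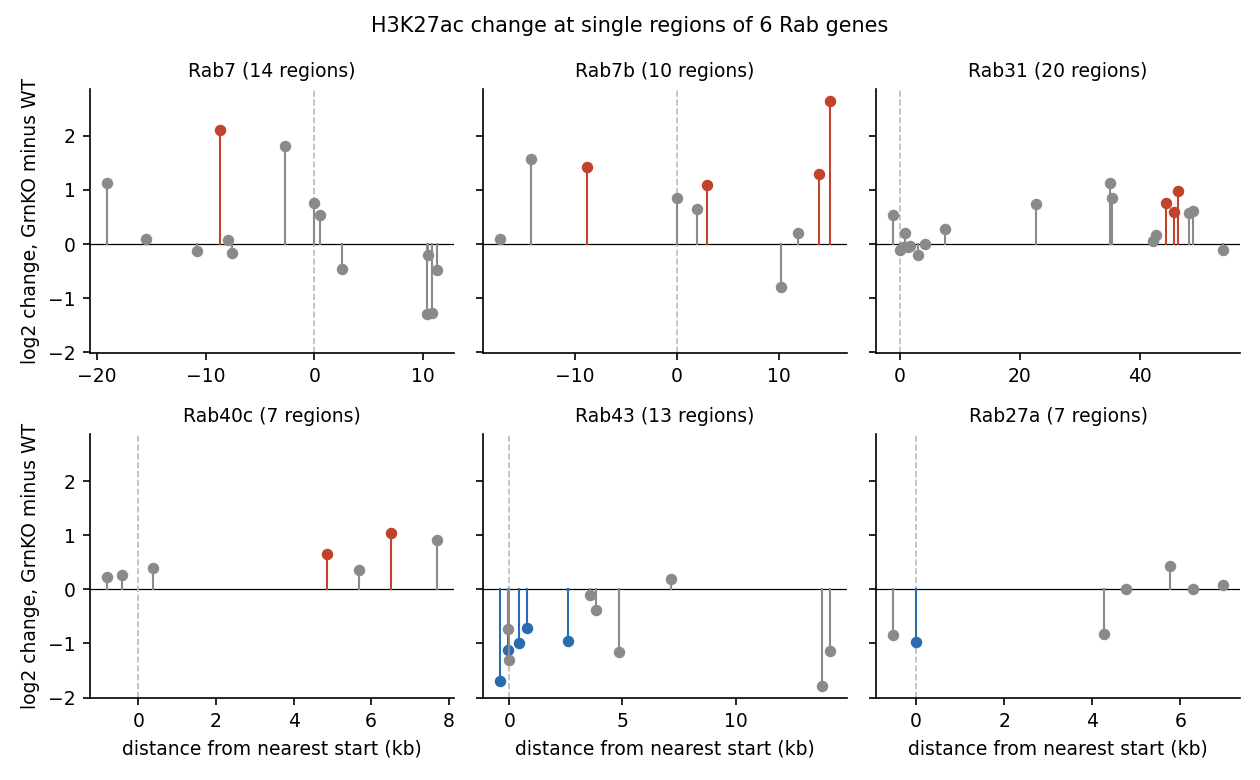
Log2 change of H3K27ac (GrnKO minus WT) at each tested region of 6 Rab genes, against the distance in kb from the nearest annotated start (dashed line); red regions are higher, blue lower and grey not past the threshold. The higher regions of Rab7, Rab7b, Rab31 and Rab40c lie away from the start, and the lower ones of Rab43 and Rab27a lie at or near it.

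The sums per gene were also split by distance. Within 1000 bp of a start 42 of 50 Rab genes could be tested. The 3 called were 7.14%, against 5.66% of all genes. Rab15 was higher, 2.38% against 4.17% of all genes, and Rab27a and Rab43 were lower, 4.76% against 1.49%. The promoter sum of Rab15 is its whole sum, which reached the filter's level only in GrnKO, so its call is no further support. The Rab27a promoter sum was 198 and 186 scaled tags in WT and 111 and 96.1 in GrnKO (log2 change -0.89, SE 0.21, limma adjusted p = 0.0166), while its distal sum had a change of 0.06 (SE 0.23). The Rab43 promoter sum had a change of -0.92 (SE 0.17, limma adjusted p = 0.00229). For the promoter sums the limma adjusted p without GrnKO replicate 1 was 0.104 for Rab15, 0.207 for Rab27a and 0.234 for Rab43, and without GrnKO replicate 2 it was 0.184 for Rab15 and 0.319 for Rab27a. With the authors' scaling it was 0.161 for Rab27a and 0.0949 for Rab43. The Rab27a call was also lost for sums within 500 bp of a start.

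Beyond 1000 bp 36 of 46 Rab genes could be tested, and the 6 called were 16.7%, against 17.6% of all genes. The genotypes did not overlap for 16 with GrnKO above (44.4%, against 29% of all genes) and for 7 with GrnKO below (19.4%, against 28.3%). Rab1a, Rab7b, Rab31, Rab37 and Rab40c were higher, 13.9% against 11.7% of all genes, and Rab35 was lower, 2.78% against 5.93%. Rab31 was called by its distal sum and not by its promoter sum. Its promoter sum was 389 and 358 scaled tags in WT and 376 and 383 in GrnKO, and its distal sum 968 and 1005 in WT against 1331 and 1340.5 in GrnKO. The promoter change was 0.02 (SE 0.15) and the distal change 0.44 (SE 0.11, limma adjusted p = 0.0139). The distal change of Rab1a was 0.58 (SE 0.17, limma adjusted p = 0.0312), with 0.377 without GrnKO replicate 1 and 0.0823 without GrnKO replicate 2. Leaving out GrnKO replicate 1 or 2 also ended the distal calls of Rab31 (limma adjusted p = 0.154 and 0.145) and Rab35 (0.338 and 0.107). The limma adjusted p was 0.0684 for Rab35 without WT replicate 1, 0.235 for Rab37 without GrnKO replicate 2 and 0.0555 for Rab40c without GrnKO replicate 1. With the authors' scaling it was 0.0747 for Rab31 and 0.329 for Rab35.

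The difference between the distal and the promoter change was itself tested for 30 Rab genes, and by limma 0 passed the threshold, beside 0.0273% of all tested genes. An unadjusted p under 0.05 was reached by 2 of the 30, beside 964 of all 7324 tested genes, and the lowest adjusted p was 0.319. The difference was 0.41 (SE 0.19, limma adjusted p = 0.454) for Rab31, 0.61 (SE 0.19, limma adjusted p = 0.345) for Rab8b and 0.95 (SE 0.27, limma adjusted p = 0.319) for Rab27a. Distal and promoter acetylation of a Rab gene were therefore not shown to change differently.

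**Figure D4:**
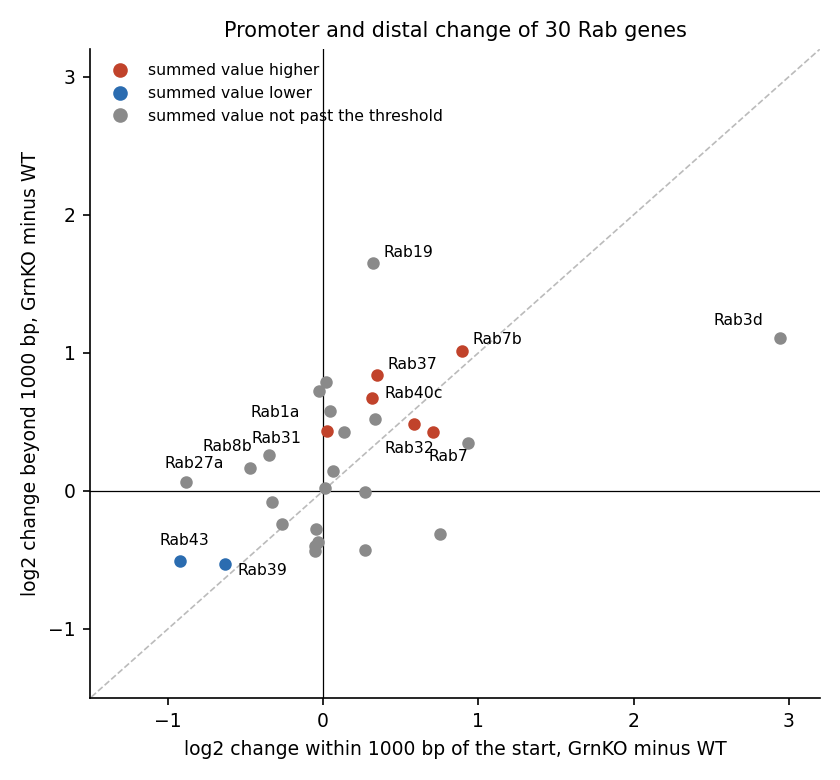
Log2 change of summed H3K27ac (GrnKO minus WT) beyond 1000 bp against that within 1000 bp of a start, for the 30 Rab genes with both sums tested; the dashed line marks equal change. Rab31 sits near 0 on the promoter axis at 0.02 and at 0.44 on the distal axis, Rab27a at -0.89 and 0.06, and Rab43 is negative on both.

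Of the 56 Rab genes 46 matched a RefSeq promoter window on GRCm38.p6, which runs from 250 bases before to 50 after a start. Each was searched on both strands for the E-box CACGTG, for the CLEAR element, which is the E-box with GT before it and AC after it and is bound by TFEB-family factors at lysosomal genes, for the AP-1 motif TGANTCA and for the PU.1 motif GAGGAAGT. The E-box was found in 6 of the 46 Rab genes, against 8.09% of 27025 genes: Rab5a, Rab20, Rab21, Rab23, Rab24 and Rab27a. The CLEAR element was found in 3 (6.52%, against 0.37%). The AP-1 motif was found in Rab15 and Rab34 (4.35%, against 8.97%) and the PU.1 motif in Rab2b and Rab32 (4.35%, against 3.69%). None of these motifs is in the 6 promoter stretches printed above. The 3 CLEAR elements, in capitals with 10 bases on each side on the gene's strand, lie at chr10:115315604-115315633 (Rab21, minus strand), chr13:55321961-55321990 (Rab24, minus strand) and chr17:53479127-53479156 (Rab5a, plus strand).
Rab21: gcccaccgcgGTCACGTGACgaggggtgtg
Rab24: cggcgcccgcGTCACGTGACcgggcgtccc
Rab5a: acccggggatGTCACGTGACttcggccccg
The summed changes of these genes, 0.42 for Rab21, -0.34 for Rab24 and -0.30 for Rab5a, were not past the threshold. A match is a description of the letters and not a site of binding.

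The genes that run the Rab cycle were described beside the Rabs, from a list of 112 regulators and effectors, of which 107 were in the table and 100 were tested. Of these 23 were called (23%, against 14.4% of all genes), 19 higher and 4 lower, with a median log2 change of 0.06. By direction 9.54% of all genes were higher and 4.88% lower. The GTPase-activating proteins, which switch Rabs off, had 9 higher (33.3%) and 1 lower (3.70%) of 27, with a median of 0.21. The effectors and tethers had 8 higher (22.2%) and 0 lower of 36 (median 0.14). The exchange factors, which switch Rabs on, had 2 higher and 2 lower (6.90% each) of 29 (median -0.06), and of 7 escort and prenylation genes 0 were higher and 1 was lower (median -0.43). The differences between these lists were not tested.

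Among the effectors, Plekhm2, an adaptor that links lysosomes to kinesin, had the smallest p. It had 551 and 564 scaled tags in WT and 1406 and 1359.8 in GrnKO, far apart (2.48-fold, log2 change 1.31, SE 0.11, limma adjusted p = 2.86e-06). Plekhm1, a Rab7 effector in lysosome fusion, had 146 and 154 in WT and 355 and 284 in GrnKO (2.13-fold, log2 change 1.08, SE 0.18, limma adjusted p = 0.000926). Eea1, the Rab5 effector that tethers early endosomes, had a change of 0.65, and Mical1, an enzyme that oxidises actin, of 0.75. None of these 4 genes overlapped between genotypes, but they were picked by p from the same values, so this is no further support. Of all tested genes 27.4% had both GrnKO values above both WT values.

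Among the GTPase-activating proteins, Tbc1d2, which acts on Rab7, had 48.9 and 26.9 scaled tags in WT and 106 and 155 in GrnKO (3.44-fold, log2 change 1.79, SE 0.33, limma adjusted p = 0.00166). Tbc1d10a (0.59), the Rab5 regulator Usp6nl (0.57), Tbc1d2b (0.47) and Tbc1d12 (1.00) were also higher. Tbc1d10c was lower, at 57.7 and 46.8 in WT and 21.2 and 16.1 in GrnKO (log2 change -1.44, SE 0.40, limma adjusted p = 0.0234).

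Of the exchange factors, Dennd2a (0.58), which acts on Rab9, and Hps1 (0.94), a part of the exchange factor of Rab32 and Rab38, were higher. Rab3ip, the exchange factor of Rab8, had 833 and 780.4 scaled tags in WT and 425 and 491 in GrnKO (0.568 of WT, log2 change -0.82, SE 0.13, limma adjusted p = 0.000619). Ccz1, which forms the exchange factor of Rab7 together with a Mon1 protein, was lower as well, at 496 and 425 in WT and 244 and 321 in GrnKO (log2 change -0.71, SE 0.17, limma adjusted p = 0.00974). The partners Mon1a and Mon1b had changes of -0.18 and -0.23 that were not past the threshold. Gdi2, the GDP dissociation inhibitor that lifts Rabs off membranes, had 3747 and 3598 in WT and 2742 and 2534 in GrnKO, without overlap (0.718 of WT, log2 change -0.48, SE 0.09, limma adjusted p = 0.0017). With the authors' scaling 1 of the 100 genes was lower in place of 4. The number called fell when a GrnKO library was left out and rose when a WT library was, for these genes and over all tested genes alike.

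**Figure D5:**
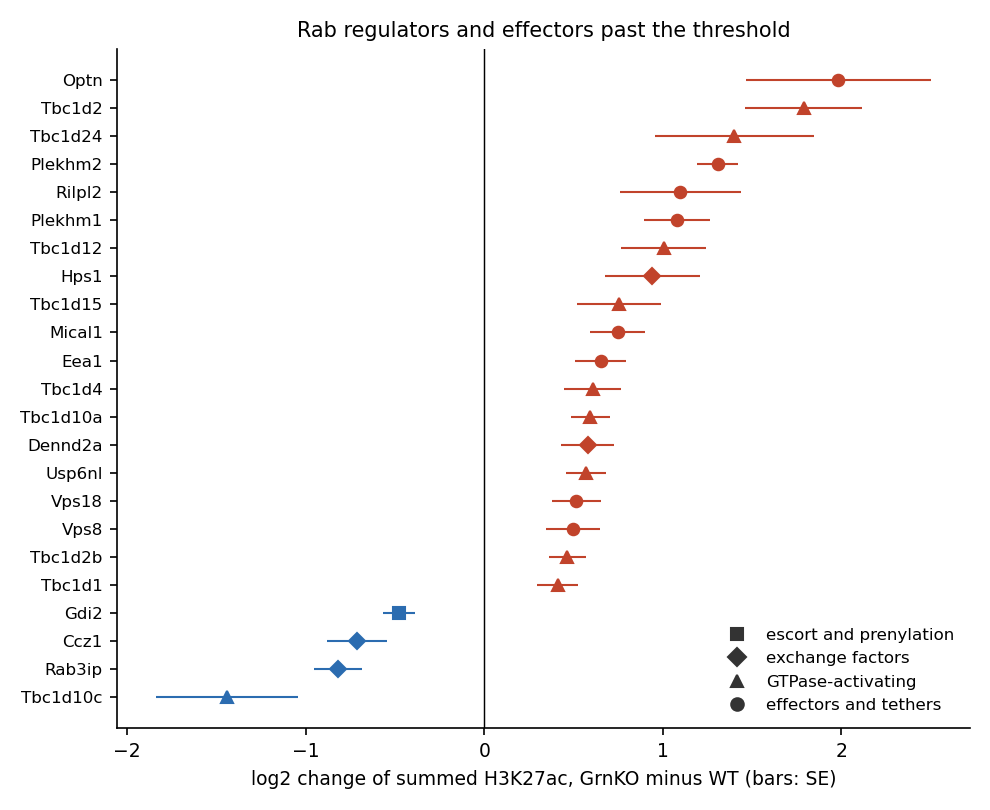
Log2 change of summed H3K27ac (GrnKO minus WT, bars are the SE of the limma fit) for the 23 Rab regulators and effectors past the threshold; symbols give the class. The 4 lower genes are Gdi2, Ccz1, Rab3ip and Tbc1d10c, and the 19 higher genes run from 0.41 (Tbc1d1) to 1.98 (Optn).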

How the data were processed

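The deposited table lists regions of 800 bp with 8 columns of values and the nearest promoter's gene. Each value is a signal: per the file headers, the authors' tag number in the region, normalised to a library of 10000000. The submitters' processing notes name mm10, Bowtie2, HOMER and DESeq2, without their order or roles; versions and the handling of duplicates are not given in the sources used here. Multiplying by the library totals returned whole read ends (2 per tag, tolerance 0.05) for 100% of values, so tags were recovered. A floor of 3 tags is 1.50 to 1.94 per H3K27ac library in the authors' scaling, before TMM.

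Tags were summed per gene, kept by edgeR's filterByExpr (minimum 10), scaled by TMM (factors over gene sums 0.845 and 1.04 in WT, 1.07 and 1.07 in GrnKO), and fitted as log2(value + 1) on genotype with limma 3.58.1 (eBayes with trend; R 4.3.3, edgeR 4.0.16, DESeq2 1.42.0), with Benjamini-Hochberg adjustment at 0.05 over all tested genes or regions. A log2 change on this scale understates low values. Sums within and beyond 1000 bp of a start, and inputs, were fitted alike. The fits were also run on simulated data, with the outcome not given here. Count tests on the recovered tags called 2209 genes with edgeR's quasi-likelihood test and 2168 with DESeq2, against 2218.

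Every Rab gene past the threshold was named with its values, the other endosome and lysosome Rabs by role, and regions and regulators by smallest p. The members and lists were chosen with earlier results of these data known. All 56 symbols had a RefSeq gene identifier, and for 45 of the 46 genes with a RefSeq promoter the table's own start was no more than 300 bp from that of RefSeq. Further Rab7b, Rab31 and Rab43 regions, regulators named beyond the rule (Hps1, Mon1a, Mon1b, Optn, Tbc1d1) and the printed sequences among a gene's starts were chosen after their values were seen. Same-numbered replicates are different mice, and the labels tie the numbers to no shared batch.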

Additional observations from a re-analysis of the deposited data

How the results depend on the processing

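Of 423 recomputed changes of single genes and regions, 321 held direction and call, 99 kept the direction but lost the call, and 3 changed sign. Of 128 recomputed counts, 73 stayed within 1.5 times and 55 did not. The cause of these shifts was not tested. The 3 sign changes each had at least 1 WT input below a floor of 3 tags, so they are poorly known. They came from subtracting the change of the inputs: Rab32 to -0.997, Rab37 to -3.53 and the Rab8b region to -1.499. That contrast called 0 of all 15380 genes and 0 of all 80728 regions, and so 0 Rab genes higher and 0 lower, and 0 regions higher and 0 lower, with 4 Rab genes at an unadjusted p under 0.05 (limma) and a lowest adjusted p of 0.663. With the authors' scaling 0 Rab genes were lower by sum, 0 by region, 0 by promoter sum and 0 by distal sum, and 1 regulator was. Without the filter 13 regions were higher and 5 lower, in a fit that called 5294 of 127833 regions (4.14%). At an adjusted p under 0.1, 5 Rab genes were lower, and 31 regions were higher and 17 lower. The share of all genes and regions past 0.1 is not given here. Splitting at 500 bp left 1 lower promoter sum and gave 2 lower distal sums, and a pseudocount of 5 also gave 2. Over all genes the split at 500 bp called 2.85% of promoter sums and 17.5% of distal sums. The pseudocount of 5 called 18.4% of distal sums.

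With the replicate number as a block 5 Rab genes, 17 regions, 4 distal sums and 7 regulators were lower, and 4 promoter sums and 8 distal sums were higher. All 10 Rab genes stayed called, and Rab11a, Rab21, Rab3d and Rab6b were added. Calls rose over the whole table too, to 19.4% of genes (from 14.4%) and 14.1% of regions (from 9.71%). They rose to 8.48% of promoter sums (from 5.66%) and 24.8% of distal sums (from 17.6%). The labels give the pairing no source beyond the number. Deviations from the group means correlated between same-numbered samples at r = 0.0368 over all tested genes, 0.206 over X-linked genes, where the make-up by sex goes with the number, and -0.347 over the 49 Rab genes.

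Leaving out 1 replicate in turn gave 3 to 11 Rab genes higher and 0 to 6 lower, 1 to 35 regions higher and 0 to 17 lower, 0 to 5 promoter sums higher and 0 to 4 lower, 2 to 10 distal sums higher and 0 to 3 lower, and 6 to 28 regulators higher and 2 to 9 lower. The lone library left in a group is then assumed to vary like the other group. Rab7b kept its call in 15 of 16 alternatives, all but the subtraction of the input. With edgeR and DESeq2 the same 10 Rab genes were called. TMM over regions was an alternative added after seeing the data. For the 7 Rab genes not tested and for many inputs few or 0 tags were counted, and no change could be measured.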
